A study of Mus musculus with 6 samples.

Results

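Enteroendocrine peptide hormones are the small secreted proteins by which scattered cells of the gut epithelium signal nutrients, acid and fullness to the gut itself, the pancreas and the brain. The 10 genes described here are Gcg, Gip, Sst, Gast, Cck, Sct, Nts, Pyy, Ghrl and Tac1, taken by symbol from the 16819 gene symbols measured in RingKO and WT cells. Each had 1 entry there, and 9 of them also had 1 entry among the 15915 symbols of a second pair of samples, in which Cck was not analysed. The symbols were named in advance of this account and not picked by a cut on any value, but with earlier results of these data known.

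The cells were sorted as Lgr5-GFP+ from crypts of the small intestine of C57BL/6 mice, 6 days after 3 tamoxifen injections. RingKO cells (2 libraries) carried Lgr5Gfp-CreERT2 with Ring1a-/- and Ring1bf/f, and WT cells (2 libraries) carried Lgr5Gfp-CreERT2 without the Ring alleles. Bcat_RingKO cells (1 library) carried Lgr5Gfp-CreERT2-Ctnnb1-ex3 with the same Ring1a-/- and Ring1bf/f alleles, and Bcat cells (1 library) carried Lgr5Gfp-CreERT2-Ctnnb1-ex3 alone. All groups thus share the CreERT2 allele and the tamoxifen, and Cre in this allele is driven from the Lgr5 locus, so that tamoxifen acts on Ring1b in Lgr5-expressing cells and their progeny, while the Ring1a-/- alleles are carried by the whole animal. The labels give neither an age nor how many animals stand behind a library, and the p-values below measure only the spread between these libraries.

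Ring1a (symbol Ring1) and Ring1b (symbol Rnf2) are the catalytic subunits of Polycomb repressive complex 1, which ubiquitinates histone H2A and helps to keep developmental genes silent, often at promoters rich in CpG dinucleotides. Ctnnb1 encodes beta-catenin, and loss of its exon that carries the degradation signals leaves the Wnt pathway active. Enteroendocrine cells arise from crypt stem cells through a short burst of the transcription factor Neurog3, and they then make different hormones as they mature and move along the crypt-villus axis. Secretin, the product of Sct, is made by several kinds of mature enteroendocrine cell, above all on the villus.

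Because Polycomb acts at CpG-rich promoters, the promoters of the 6 genes with the most reads among those that changed are printed here, as the 250 bases before the start of the gene on its own strand, with each CpG in capitals. The sequences come from RefSeq on GRCm38.p6, whereas the expression values were made on mm9. The promoter of Sct, the hormone gene that rose, lies at chr7:141279134-141279383 (minus strand). That of Gcg lies at chr2:62483654-62483903 (minus), Gip at chr11:96024295-96024544 (plus), Sst at chr16:23890845-23891094 (minus), Gast at chr11:100334157-100334406 (plus) and Tac1 at chr6:7554811-7555060 (plus).
Sct: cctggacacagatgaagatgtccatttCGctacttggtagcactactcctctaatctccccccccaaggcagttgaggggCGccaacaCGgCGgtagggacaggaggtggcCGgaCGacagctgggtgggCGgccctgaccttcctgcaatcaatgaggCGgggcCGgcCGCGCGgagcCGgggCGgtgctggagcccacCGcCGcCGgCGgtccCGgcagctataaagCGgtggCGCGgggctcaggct
Gcg: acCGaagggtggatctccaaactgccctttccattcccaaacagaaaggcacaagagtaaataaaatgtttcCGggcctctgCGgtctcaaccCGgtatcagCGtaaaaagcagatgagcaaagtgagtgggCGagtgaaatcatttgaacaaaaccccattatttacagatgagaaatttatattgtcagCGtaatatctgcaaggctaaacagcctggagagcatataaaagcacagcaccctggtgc
Gip: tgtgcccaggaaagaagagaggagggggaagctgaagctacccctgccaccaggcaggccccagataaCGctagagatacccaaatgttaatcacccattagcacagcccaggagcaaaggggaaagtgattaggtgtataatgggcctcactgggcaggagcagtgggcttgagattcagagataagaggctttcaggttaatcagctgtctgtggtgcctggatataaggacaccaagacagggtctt
Sst: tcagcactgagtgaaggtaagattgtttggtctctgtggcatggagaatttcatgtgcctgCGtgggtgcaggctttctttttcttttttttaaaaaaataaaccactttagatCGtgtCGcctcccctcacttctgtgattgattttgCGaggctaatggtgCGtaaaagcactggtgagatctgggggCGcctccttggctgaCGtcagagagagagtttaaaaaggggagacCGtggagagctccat
Gast: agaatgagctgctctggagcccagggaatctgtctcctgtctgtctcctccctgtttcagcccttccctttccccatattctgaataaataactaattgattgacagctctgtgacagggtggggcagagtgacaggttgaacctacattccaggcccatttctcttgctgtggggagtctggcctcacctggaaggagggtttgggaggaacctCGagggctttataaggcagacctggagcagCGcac
Tac1: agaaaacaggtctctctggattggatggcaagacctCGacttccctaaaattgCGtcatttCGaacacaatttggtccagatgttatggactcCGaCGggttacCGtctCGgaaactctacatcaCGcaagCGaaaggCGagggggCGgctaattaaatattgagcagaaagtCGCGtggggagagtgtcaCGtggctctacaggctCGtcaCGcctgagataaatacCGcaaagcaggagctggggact

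Of the 10 hormone genes, 6 fell in RingKO cells relative to WT, 1 rose and 3 were not called, where a call is an adjusted p in the authors' deposited table that lies under 0.05. Gcg, Gip, Sst, Gast, Pyy and Tac1 fell, Sct rose, and Cck, Nts and Ghrl were not called. In the authors' deposited table as a whole, 1.76% of 18376 entries were called lower and 3.14% higher, or 4.9% in either direction. Where the mean was at least 50, these shares were 3.69% lower and 3.8% higher. On the reads of each library, edgeR and DESeq2 gave the same counts for the hormone genes, 6 lower and 1 higher. Of all entries tested, edgeR called 2.95% lower and 9.91% higher, and DESeq2 1.89% lower and 6.88% higher. The median log2 fold change of the 10 genes was -2.93, against 0.02 for all entries. In 9 of the 10 genes both RingKO libraries lay below both WT libraries, which held for 33.6% of all entries, and for Sct both lay above, which held for 18%.

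Library depth ran from 922153 reads in Bcat to 6753789 in a WT library, and the 2 RingKO libraries had 2911422 and 2651201 reads. Replicates differed by a log2 ratio with an SD of 0.447 in RingKO and 0.25 in WT over well-covered entries (mean of at least 50), so RingKO values are the less certain. Ring1 had 9 and 11 reads in RingKO, against 484 and 363 in WT, and 43 reads in Bcat_RingKO, against 24 in Bcat, where the authors' deposited table gives a ratio of 0.352. The loss of Ring1 reads was thus smaller in the Bcat pair (log2 difference 2.39 ± 0.47 SE, edgeR over all 6 libraries, adjusted p = 0.0198), and Bcat_RingKO below means the library with that label. Rnf2 was not called (log2 0.16 with an adjusted p of 1 in the authors' deposited table), and because the deleted part of the gene was not counted apart from the rest, this does not check the label. Lgr5 had 461 and 222 reads in RingKO, against 942 and 922 in WT, and 1505 reads in Bcat_RingKO, against 146 in Bcat. A bulk library cannot tell fewer hormone cells from less hormone RNA per cell.

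**Figure D1:**
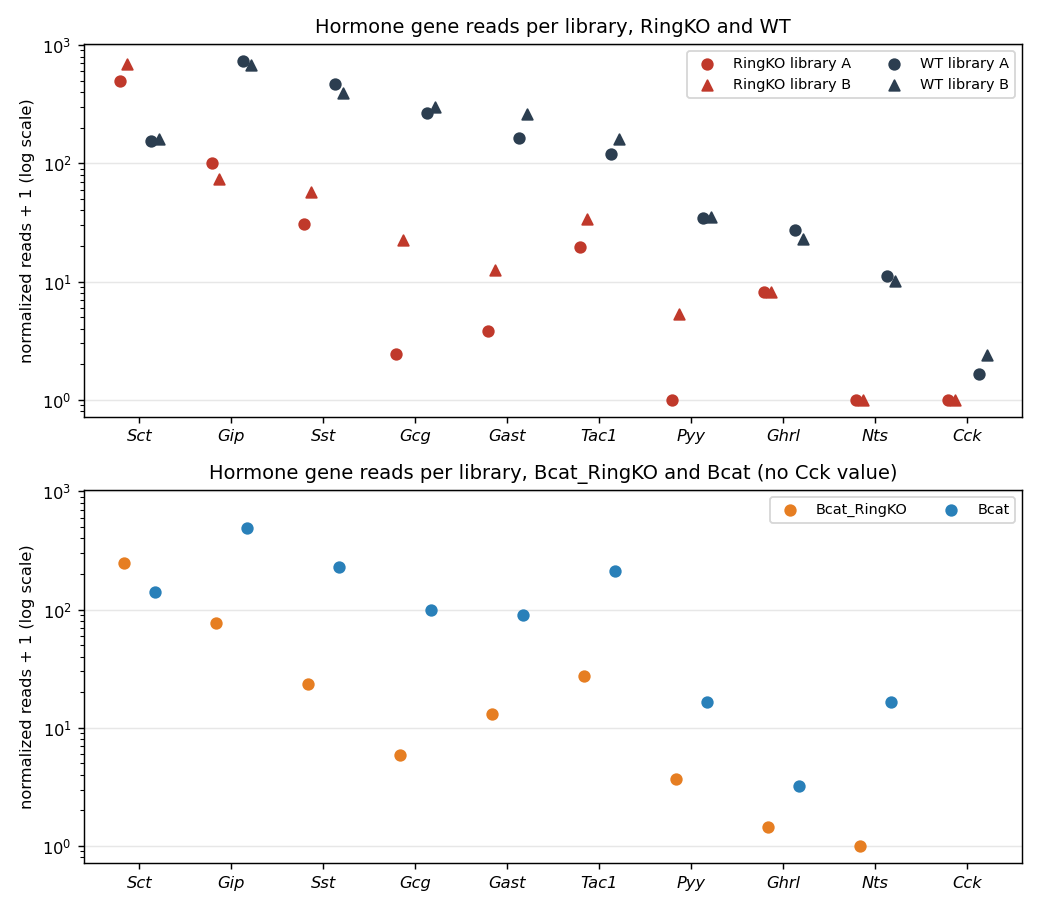
Reads of each hormone gene divided by the size factor of the library, plus 1, on a log axis, for RingKO and WT (upper panel, 2 libraries each, shown by circle and triangle) and for Bcat_RingKO and Bcat (lower panel, 1 library each, without Cck). Sct is the hormone gene with its RingKO points above its WT points, and the other 9 lie lower in RingKO.

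Gcg, which encodes proglucagon and through it GLP-1 and GLP-2 in the gut, had 1 and 15 reads in the RingKO libraries, against 415 and 425 in the WT libraries. As normalized reads, that is reads divided by the size factor of the library, these were 1.42 and 21.5 in RingKO, against 265 and 299 in WT. The groups did not overlap, and the RingKO libraries differed widely from each other. The fold change was 21.5-fold lower by edgeR (log2 -4.43 ± 0.49 SE, quasi-likelihood test, Benjamini-Hochberg adjusted p = 0.00109). It was -3.48 without RingKO library A and -7.39 without RingKO library B, so the fall held in either library but its size did not.

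Gast, the gene of the acid-stimulating hormone gastrin, had 2.84 and 11.5 normalized reads in RingKO, against 164 and 261 in WT. Both groups spread, and no RingKO library came near a WT library. By edgeR it was 25.7-fold lower (log2 -4.68 ± 0.46 SE, adjusted p = 0.000627), the largest fall of the 8 hormone genes with an edgeR value. This log2 value was -3.97 without RingKO library A and -6.02 without RingKO library B.

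Sst encodes somatostatin, which restrains the release of other gut hormones. It had 29.8 and 56.0 normalized reads in RingKO, against 464 and 390 in WT, or 21 and 39 reads against 726 and 554. The fall was 8.75-fold by edgeR (log2 -3.13 ± 0.28 SE, adjusted p = 0.000396). Gip encodes the incretin GIP, which promotes insulin release after a meal. It had 99.5 and 73.2 normalized reads in RingKO, against 733 and 671 in WT, and with 51 or more reads in each library it is the most firmly measured fall. By edgeR it was 7.17-fold lower (log2 -2.84 ± 0.18 SE, adjusted p = 0.000105), and between -3.04 and -2.67 with any 1 library left out.

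Tac1 encodes substance P and neurokinin A, tachykinins that enterochromaffin cells and enteric neurons both make. It had 18.5 and 33.0 normalized reads in RingKO, against 119 and 161 in WT, a 4.75-fold fall by edgeR (log2 -2.25 ± 0.31 SE, adjusted p = 0.00277). Of 9 enteric neuron markers 4 had an entry, none was called by the authors' deposited table, edgeR or DESeq2 or had an unadjusted p under 0.05 in that table, and their summed RPM (library-scaled reads, without the length) were 6.18 and 8.30 in RingKO, against 5.63 and 9.53 in WT. These markers went different ways: Tubb3 was at 2.06 and 1.89 RPM in RingKO, against 3.998 and 4.13 in WT, and Ret at 3.09 and 4.90 in RingKO, against 1.04 and 2.70 in WT. In the Bcat pair, with 1 library a group, the summed RPM of the 4 markers was 4.70 in Bcat_RingKO, against 16.3 in Bcat. There 2 were at least 2-fold lower and 1 at least 2-fold higher, beside 20.8% and 21.8% of all entries. Among them Snap25 had 3 reads in Bcat_RingKO, against 11 in Bcat. The part of neurons in the Tac1 values was not tested.

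Pyy encodes peptide YY, a satiety hormone that is more typical of the distal gut. It had 0 and 3 reads in RingKO, against 52 and 48 in WT, so its level in RingKO rests on 3 reads of 1 library. By edgeR the fall was 13.2-fold (log2 -3.72 ± 0.70 SE, adjusted p = 0.0109), and the log2 value was -2.71 without RingKO library A and -8.34 without RingKO library B. The call was lost without WT library A (edgeR adjusted p = 0.0812) or WT library B (0.078).

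The 3 genes without a call were the ones with the fewest reads in WT. Nts, the gene of neurotensin, had 0 reads in both RingKO libraries, against 16 and 13 in the WT libraries. Set against a floor of 3 reads over the RingKO group, it was at least 4.54-fold lower, with an adjusted p of 0.448 in the authors' deposited table. It fell below the count filter of edgeR, and without that filter its edgeR adjusted p was 0.0251.

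Ghrl encodes ghrelin, the hunger hormone of the stomach and upper intestine. It had 5 and 5 reads in RingKO, against 41 and 31 in WT, or 7.11 and 7.18 normalized reads against 26.2 and 21.8. The groups did not overlap, the edgeR log2 value was -1.56 ± 0.43 SE, and the adjusted p of 0.0523 missed the threshold. Cck, the gene of cholecystokinin, had no reads in RingKO and 1 and 2 reads in WT, which is at the floor, so no fold is given. The RefSeq annotation lists other Cck transcripts, which are not analysed here, and the low counts of this entry do not give the level of the gene.

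Sct moved apart from all other hormone genes. Secretin stimulates the bicarbonate-rich juice of the pancreas when acid enters the duodenum. Sct had 493 and 692 normalized reads in RingKO, against 153 and 160 in WT, from 347 and 482 reads against 239 and 227. The WT libraries agree closely, the RingKO libraries less so, and the gap between groups is wider than the spread in either. The authors' deposited table gives a 3.78-fold rise (log2 1.92, adjusted p = 0.000312). By edgeR it was 4.32-fold (log2 2.11 ± 0.20 SE, adjusted p = 0.000614), and with any 1 library left out the log2 value lay between 1.80 and 2.37.

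The opposite moves changed the order of the hormones. In RPKM, which divides reads by transcript length and library total, Sct led in RingKO with 235 and 359, against 69.8 and 71.1 in WT, where it was the fourth. Gip was at 36.9 and 29.5 RPKM in RingKO, against 260 and 232 in WT, where it led. Sst followed in both groups, with 10 and 20.4 RPKM in RingKO, against 149 and 122 in WT. Below Sst in RingKO came Tac1, Gast, Ghrl, Gcg and Pyy by mean RPKM, and each of these overlapped its neighbour in that order. In WT the order went on with Gast, Sct, Gcg, Tac1, Pyy, Ghrl, Nts and Cck, and Sst with Gast was the pair of neighbours that overlapped.

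As a share of all hormone reads per kilobase, Sct made up 80.9% and 82.8% in the RingKO libraries, against 10.5% and 10.6% in the WT libraries. Gip made up 12.7% and 6.82% in RingKO, against 39.0% and 34.6% in WT. The shares of Sst were 3.44% and 4.71% in RingKO, against 22.3% and 18.2% in WT. Gast held 0.514% and 1.51% in RingKO, against 12.33% and 19.1% in WT. Hormone output in RingKO libraries was thus mostly Sct RNA, whereas in WT it was spread over 5 genes with at least 8.45% each.

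Summed over the 10 genes, normalized hormone reads were 776 ± 174 in RingKO and 1988 ± 28.5 in WT (SD, n = 2 each), a 2.56-fold lower sum. Without Sct the sum was 183 ± 33.7 in RingKO and 1832 ± 23.4 in WT, 10.01-fold lower.

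**Figure D2:**
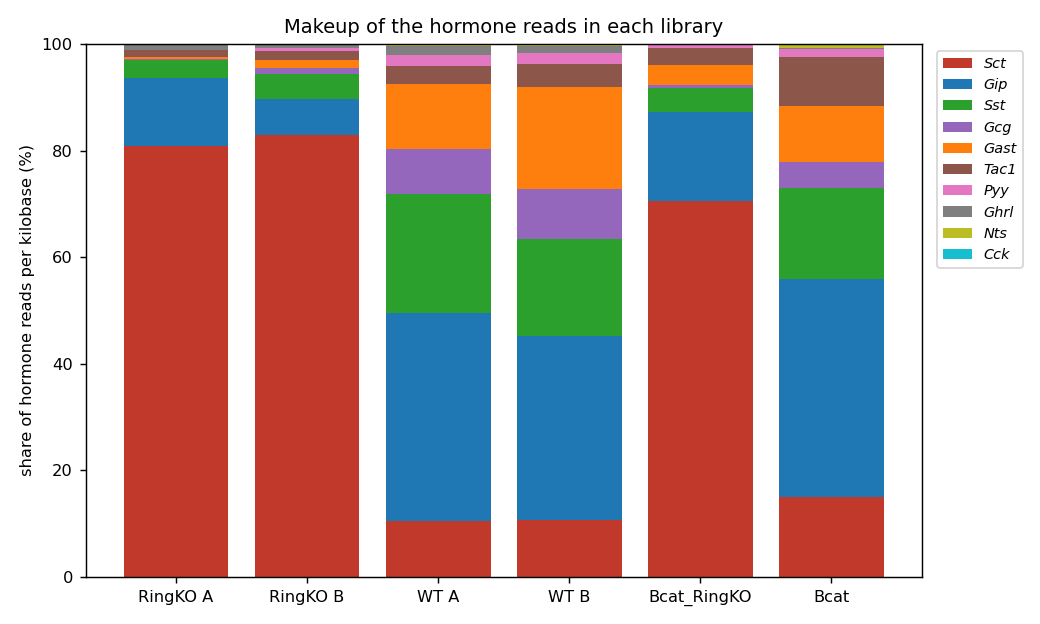
Share of each hormone gene (%) in the sum of hormone reads per kilobase of transcript, by library, for RingKO A and B, WT A and B, Bcat_RingKO and Bcat. Sct fills 80.9% and 82.8% of the RingKO bars and 70.5% of the Bcat_RingKO bar, against 10.5%, 10.6% and 15.02% of the WT and Bcat bars.

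In the Bcat pair, with 1 library a group and no replicate check, 7 of the 8 hormone genes with more than 1 read in either library were at least 2-fold lower in Bcat_RingKO than in Bcat, and none was at least 2-fold higher. The deposited ratio of Ghrl is past 2-fold too, which makes 8 of 9, but with 1 read in each library it reflects the scaling alone and is not read as a fall. Of all 17076 entries in that pair 20.8% were at least 2-fold lower and 21.8% at least 2-fold higher. The median log2 ratio of the 9 genes was -2.87, against 0.00 for all entries. For Gcg, Gip, Sst, Gast, Tac1 and Nts the whole 95% counting interval lay past 2-fold, and intervals here cover counting error only.

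Gcg had 4.92 normalized reads in Bcat_RingKO, against 98.4 in Bcat, a ratio of 0.05 with a 95% counting interval of 0.0233 to 0.0984 (exact conditional binomial). Sst had 22.4 in Bcat_RingKO, against 228 in Bcat, a ratio of 0.098 (0.0685 to 0.139). Tac1 had 26.4 in Bcat_RingKO, against 210 in Bcat, a ratio of 0.126 (0.0891 to 0.176). In Bcat the level of Tac1 per length stood above that of Gcg (82.9 against 43.9 RPKM), whereas in WT it stood below (22.4 and 29.5 against 56.5 and 62.1 RPKM).

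Gast had 12.1 normalized reads in Bcat_RingKO, against 89.4 in Bcat, a ratio of 0.135 (0.0797 to 0.225). Gip had 75.6 in Bcat_RingKO, against 492 in Bcat, a ratio of 0.154 (0.125 to 0.189). Pyy had 6 reads in Bcat_RingKO and 7 in the shallower Bcat library, a ratio of 0.171 (0.0476 to 0.596) after scaling. Nts had 0 reads in Bcat_RingKO, against 7 in Bcat, a ratio of 0 (0 to 0.139). With Bcat_RingKO set to the floor of 3 reads, Nts was 11.7-fold lower. Ghrl had 1 read in each library, and no fold is given.

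Sct had 248 normalized reads in Bcat_RingKO, against 141 in Bcat, a ratio of 1.76 (1.36 to 2.32). It was again the hormone gene that did not move down, but by less than 2-fold. An edgeR fit over all 6 libraries, added after the data were seen, takes the lone Bcat and Bcat_RingKO libraries to vary like the other groups, an assumption that these data cannot check. It called 6 of the 9 genes lower in Bcat_RingKO and none higher, where 12.9% of all tested entries were called lower and 15.4% higher. The 6 were Gcg, Gip, Sst, Gast, Nts and Tac1, with edgeR adjusted p-values between 0.0018 (Gip and Sst) and 0.0115 (Nts). For Sct the pair's edgeR log2 value was 0.53 ± 0.32 SE (adjusted p = 0.241), and for Pyy -2.80 ± 1.00 SE (adjusted p = 0.0687).

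The difference between the Bcat pair's fold change and that of RingKO against WT was tested in the same edgeR fit, under the same assumption, so these p-values hold no measured spread of the Bcat pair. For Gip it was -0.11 ± 0.29 SE on the log2 scale (adjusted p = 0.844), for Sst -0.47 ± 0.48 SE (adjusted p = 0.562) and for Gcg -0.12 ± 0.95 SE (adjusted p = 0.953). The SE of Gcg leaves room for differences of several fold. For Tac1 it was -0.99 ± 0.50 SE (adjusted p = 0.228) and for Gast 1.55 ± 0.80 SE (adjusted p = 0.238). The Tac1 difference passed the threshold without RingKO library A (-1.39, adjusted p = 0.00833), and that of Gast without RingKO library B (2.89, adjusted p = 0.00425).

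For Sct the log2 difference was -1.54 ± 0.38 SE, a smaller rise in the Bcat pair, and with all libraries in no other hormone gene passed the threshold (edgeR adjusted p = 0.0399 for Sct). Of all tested entries 5.63% had a lower fold change in the Bcat pair by this test. The edgeR adjusted p was 0.0622 without WT library A and 0.0577 without WT library B, and it was 0.0678 with scaling by library totals.

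**Figure D3:**
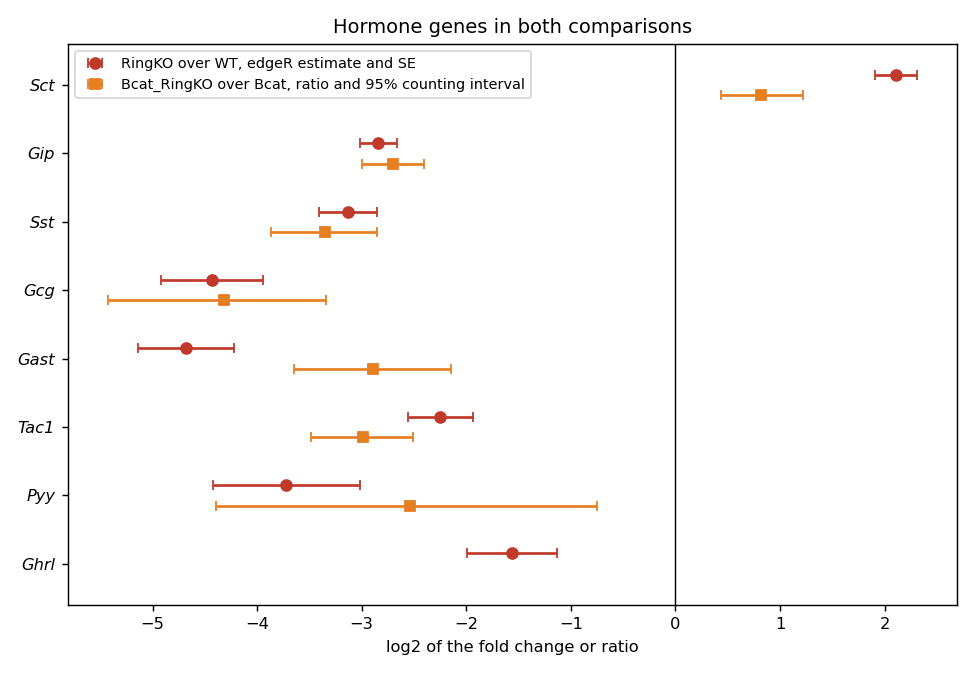
Log2 fold change of RingKO over WT (circles, edgeR estimate with SE, 2 libraries each) and log2 ratio of Bcat_RingKO over Bcat (squares, 1 library each, 95% counting interval), by hormone gene. Sct lies right of 0 in both, at 2.11 and 0.82, and the other genes shown lie left of 0. Ghrl has no ratio in the Bcat pair, and Nts and Cck are not plotted.

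Some genes that make enteroendocrine cells were lower with the hormones in RingKO, but 15 of the 22 measured were not called. Of 25 transcription factors of the lineage 22 had an entry, and 7 were lower and none higher in RingKO by the authors' deposited table (8 and 1 at an unadjusted p under 0.05). That table called 1.76% of all entries lower and 3.14% higher. By edgeR 7 were lower and none higher, and by DESeq2 7 and 1, the higher gene being Pax6. Of all tested entries edgeR called 2.95% lower and 9.91% higher, and DESeq2 1.89% lower and 6.88% higher. Neurog3, which starts the lineage, had 8 and 8 reads in RingKO, against 177 and 189 in WT (edgeR log2 -3.23 ± 0.28 SE, adjusted p = 0.000353). Insm1, a zinc finger repressor that acts after it, had 20 and 24 reads in RingKO, against 207 and 257 in WT (edgeR log2 -2.13 ± 0.26 SE, adjusted p = 0.00156). Neurod1, a factor of the maturing cells, had 4 and 7 reads in RingKO, against 75 and 92 in WT (edgeR log2 -2.64 ± 0.41 SE, adjusted p = 0.00438). Mnx1, a homeobox factor, had 34 and 26 reads in RingKO, against 193 and 167 in WT (edgeR log2 -1.31 ± 0.21 SE, adjusted p = 0.00567). The edgeR call of Neurod1 was lost without WT library B (adjusted p = 0.0536) and that of Mnx1 without WT library A (adjusted p = 0.0626).

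In the Bcat pair Neurog3 had 12 reads in Bcat_RingKO and 29 in Bcat, a ratio of 0.0828 (0.0385 to 0.167) after scaling. Insm1 had a ratio of 0.348 (0.212 to 0.581), Neurod1 0.233 (0.118 to 0.465) and Mnx1 1 (0.518 to 2.12). Of the 20 factors measured there, 7 were at least 2-fold lower and 4 at least 2-fold higher, beside 20.8% and 21.8% of all entries. The whole counting interval lay past 2-fold for 4 lower and 1 higher, the higher gene being Prox1 at a ratio of 8.01 (4.74 to 14.8). Mnx1, lower in RingKO than in WT, thus had the same normalized level in both libraries of the Bcat pair. The other factors called lower in RingKO were Isl1, Sox4 and Fev, which like Prox1 are named after their values were seen. Their ratios in the Bcat pair were 0.714 (0.3 to 1.96) for Isl1, 1.9 (1.5 to 2.45) for Sox4 and 0.16 (0.0684 to 0.366) for Fev.

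Genes of the secretory granule and of hormone processing came next. Of 26 such genes 25 had an entry, and 6 were lower and none higher in RingKO by the authors' deposited table (11 lower and none higher at an unadjusted p under 0.05). By edgeR 8 were lower and by DESeq2 4, with none higher in either, beside 2.95% and 1.89% of all tested entries called lower. Cpe, the carboxypeptidase that trims prohormones, had 35 and 23 reads in RingKO, against 275 and 320 in WT (edgeR log2 -2.09 ± 0.23 SE, adjusted p = 0.00117). Scgn, the calcium sensor secretagogin, had 4 and 4 reads in RingKO, against 70 and 56 in WT (edgeR log2 -2.68 ± 0.40 SE, adjusted p = 0.00393). Chgb, a granin that packs the granule, had 1624 and 1422 normalized reads in RingKO, against 3364 and 4391 in WT (edgeR log2 -1.16 ± 0.17 SE, adjusted p = 0.00339). Ptprn2, a granule membrane protein, was lower by a smaller margin, with 170 and 237 normalized reads in RingKO, against 372 and 457 in WT (edgeR log2 -0.83 ± 0.20 SE, adjusted p = 0.0334). The edgeR calls of 3 of these did not hold with 1 library out: Scgn without WT library A (adjusted p = 0.068), Chgb without WT library B (0.0616), and Ptprn2 without WT library A (0.0865) or B (0.271).

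In the Bcat pair 15 of the 24 granule and processing genes measured were at least 2-fold lower and 1 at least 2-fold higher in Bcat_RingKO, beside 20.8% and 21.8% of all entries. For 7 of the 15 the whole counting interval lay past 2-fold. Chgb had 301 normalized reads in Bcat_RingKO, against 2203 in Bcat, a ratio of 0.137 (0.124 to 0.151). The log2 difference to RingKO against WT was -1.95 ± 0.30 SE (edgeR adjusted p = 0.011, with the spread of the Bcat pair assumed and not measured). Cpe had a ratio of 0.148 (0.0991 to 0.221) and Scgn of 0.0778 (0.0275 to 0.195).

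Chga, the granin that marks enteroendocrine cells at large and was chosen here after its values were seen, had 983 and 1302 normalized reads in RingKO, against 1561 and 1831 in WT. Its adjusted p was 0.167 in the authors' deposited table and its edgeR log2 value -0.38 ± 0.19 SE (adjusted p = 0.247). In the Bcat pair it had 286 normalized reads in Bcat_RingKO, against 1241 in Bcat, a ratio of 0.231 (0.206 to 0.259). Hormone reads were also taken per 100 Chga reads of the same library. For Sct these were 50.1 and 53.1 in RingKO, against 9.78 and 8.73 in WT, and 86.7 in Bcat_RingKO, against 11.4 in Bcat. For Gip they were 10.1 and 5.62 in RingKO, against 47.0 and 36.6 in WT, and 26.4 in Bcat_RingKO, against 39.6 in Bcat. For Gcg they were 0.145 and 1.65 in RingKO, against 16.99 and 16.3 in WT, and 1.72 in Bcat_RingKO, against 7.93 in Bcat. Relative to Chga, Sct was higher and Gip and Gcg lower in RingKO than in WT, and likewise in Bcat_RingKO than in Bcat. Chga itself moved unlike in the comparisons. Its log2 value in the Bcat pair minus that of RingKO against WT was -1.98 (edgeR over all 6 libraries). The rise of Sct per Chga read in the Bcat pair thus includes the lower Chga, since the ratio of Sct itself was 1.76 there.

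The lists of other peptides, nutrient sensors and hormone receptors had few calls, beside 4.9% of all entries called in either direction. Of 25 other gut and neural peptides 18 had an entry, and none was called in either direction by the authors' deposited table, edgeR or DESeq2, and none had an unadjusted p under 0.05 in that table. Low counts limit these lists: a mean of at least 10 was reached by 6 of the 18 peptides, 8 of the 15 sensors and 4 of the 19 receptors and enzymes below. In the Bcat pair 5 of 16 peptides were at least 2-fold lower and 5 at least 2-fold higher, beside 20.8% and 21.8% of all entries. The whole counting interval lay past 2-fold for 1 lower and 2 higher. Of 17 nutrient-sensing receptors and channels 15 had an entry, and the authors' deposited table and DESeq2 called none, although 1 was lower at an unadjusted p under 0.05 in that table. The edgeR test called 1 lower, the irritant-sensing channel Trpa1 (log2 -2.44, adjusted p = 0.0282). Of 25 hormone receptors and peptide-handling enzymes 19 had an entry, and the authors' deposited table called none lower and 1 higher, whereas edgeR and DESeq2 each called 2 higher. The gene added by both tests was Dpp4, the peptidase that cuts incretins (edgeR log2 0.72, adjusted p = 0.0357), which like Trpa1 and Pax6 is named here after its values were seen. The gene called in the authors' deposited table was Gcgr, the glucagon receptor, with 19 and 30 reads in RingKO, against 4 and 1 in WT, a ratio of 20.9 (95% counting interval 8.37 to 67.2). In the Bcat pair Gcgr had 131 reads in Bcat_RingKO and 0 in Bcat, at least 8.73-fold higher against the floor of 3 reads. Gcg and Gcgr thus moved in opposite directions. The receptor genes of GLP-1 and GLP-2, the gut products of Gcg, were not called. Glp1r had 5 and 4 reads in RingKO, against 7 and 9 in WT, and Glp2r had 0 and 0 in RingKO, against 1 and 0 in WT.

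**Figure D4:**
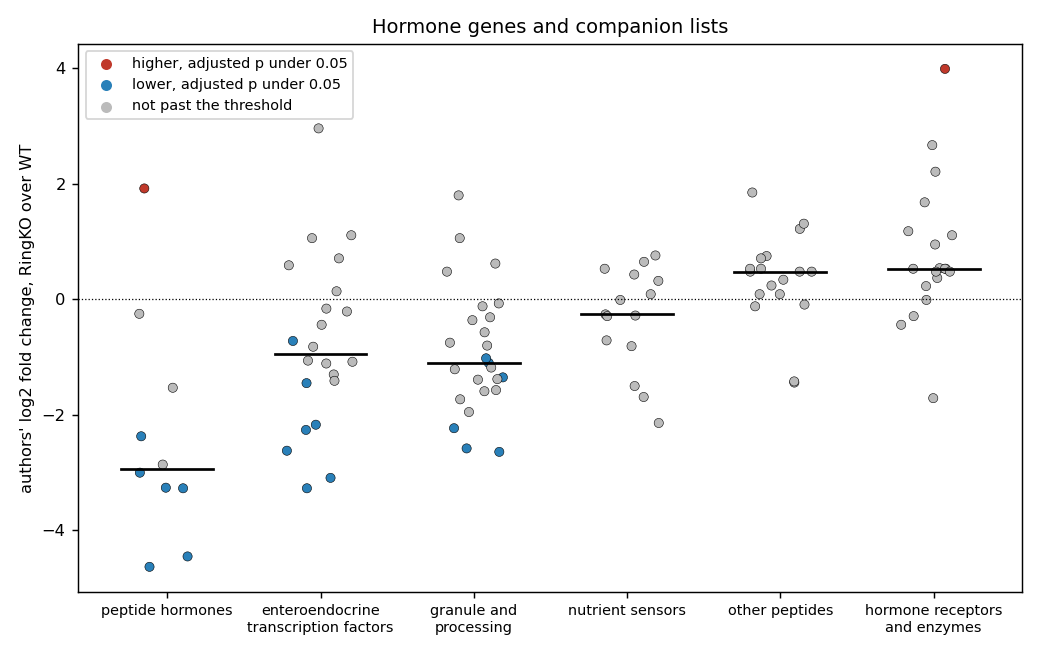
Log2 fold change of RingKO over WT in the authors' deposited table for each gene of 6 lists, with the median of the list as a bar and colour for genes past the threshold. The hormone genes have the lowest median (-2.93), followed by granule and processing genes (-1.10) and transcription factors of the lineage (-0.94).

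Markers of other cell types also differed between the libraries. For the counts below, 1.76% of all entries were called lower and 3.14% higher in RingKO by the authors' deposited table. In the Bcat pair 20.8% of all entries were at least 2-fold lower and 21.8% at least 2-fold higher. Of 8 Paneth cell markers 7 were higher in RingKO by the authors' deposited table, and their summed RPM was 9878 and 13453.5 in RingKO, against 4226 and 2786 in WT, and 1338 in Bcat_RingKO, against 4727 in Bcat. Of 8 tuft cell markers with an entry 5 were lower, with sums of 55.6 and 69.4 in RingKO, against 199 and 192 in WT, and 233 in Bcat_RingKO, against 345 in Bcat. The gap in the Bcat pair rests on Rgs13, without which the tuft sums were 219 in Bcat_RingKO, against 223 in Bcat. Of 10 Lgr5 stem cell markers 3 were lower, with sums of 6815 and 3566 in RingKO, against 8416 and 9529 in WT. Of these sums Olfm4, which was not called, held 3271 and 1182 in RingKO, against 4456 and 5302 in WT. In the Bcat pair 2 stem cell markers were at least 2-fold lower and 3 at least 2-fold higher, with sums of 3887 in Bcat_RingKO, against 5343 in Bcat. Goblet cell markers (1 of 8 higher, none lower) and enterocyte markers (1 of 10 higher, 3 lower) were called in part. Of 10 enterocyte markers 8 were at least 2-fold lower in Bcat_RingKO than in Bcat, with a median log2 ratio of -2.33 and sums of 1972 RPM in Bcat_RingKO, against 5673 in Bcat. Of 8 goblet markers 4 were at least 2-fold lower and 3 at least 2-fold higher there. Enterocyte and Paneth markers thus were lower together with the hormone genes in the Bcat pair. Paneth markers were higher in RingKO but lower in Bcat_RingKO, while the hormone genes other than Sct were lower in both. The part of a different cell makeup in the hormone values was not tested.

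Of markers from outside the epithelium, 6 immune genes had no call by the authors' deposited table, edgeR or DESeq2 and none had an unadjusted p under 0.05 in that table, with sums of 34.4 and 44.1 RPM in RingKO, against 31.1 and 30.2 in WT. Of 6 mesenchymal genes with an entry 1 was lower, beside 1.76% of all entries, with sums of 19.9 and 16.2 in RingKO, against 44.0 and 39.4 in WT. Of these 6, 5 were at least 2-fold lower in Bcat_RingKO than in Bcat (median log2 ratio -2.91), beside 20.8% of all entries. Col1a2 had 0 reads in Bcat_RingKO, against 25 in Bcat, and Col3a1 had 1 read, against 9. Vim, the most abundant of them, was higher there, with 608 reads in Bcat_RingKO, against 60 in Bcat, a ratio of 2.03 (1.55 to 2.69) after scaling. Of 6 pancreas or stomach genes with an entry Cela1, Muc5ac and Pgc were lower, with list sums of 563 and 536 in RingKO, against 1168 and 1604 in WT, and 109 in Bcat_RingKO, against 304 in Bcat. Gast and Ghrl are also stomach hormones, and the part of such cells in their values was not tested.

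By the pair of log2 values over the 4 groups, over 7874 entries whose mean reached 50, the genes nearest to Sct were Bex4 (1.88 and 0.77), Slc40a1 (1.79 and 0.77) and Limd2 (1.89 and 0.94), given as RingKO over WT and then Bcat_RingKO over Bcat. Their distances to Sct were 0.0491, 0.131 and 0.147 in log2 units. The genes nearest to Gip were Sst at a distance of 0.69, Tac1 at 0.692 and Cpe at 0.769. The genes nearest to Gip were thus 2 other hormone genes and a prohormone-processing enzyme. No hormone gene was among the 3 nearest to Sct, which its rise already implied, since the distance uses the same log2 values.

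The promoters printed above differ in CpG content. Sct has 22 CpG in its 250 bases, with a CpG ratio of observed to expected of 0.765 and 68% G and C, and 14.8% of 32851 mouse promoters have as many or more. The median promoter has 6 CpG, a ratio of 0.374 and 52.4% G and C. Gip has 1 CpG, Gast 2, Gcg 7 and Sst 8. Tac1 has 17 CpG and a ratio of 1.05, and 23.5% of promoters have as many or more. Sct and Tac1, the CpG-richest promoters of the 10 genes, thus belong to genes that moved in opposite directions. The CpG content of a promoter is a description and was not tested against expression.

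Short motifs were searched on both strands of the same windows. The shares count every listed start of every gene, and the genes named are those with the motif at their first listed start unless stated. TATAAA, the core promoter box, is on either strand in 12.4% of all promoters and in those of Gcg, Gast and Sct. In Gast the match lies on the opposite strand only, as TTTATA in the printed sequence. The palindrome TGACGTCA, the binding word of cAMP-response factors, is in 1.55% of all promoters and, among the 10 genes, in that of Sst, which is known for it. CAGATG, an E-box word that bHLH factors such as Neurod1 can bind, is in 14.4% of all promoters and in those of Gcg, Cck, Sct and Tac1. CAGCTG, another E-box word, is in 13% of all promoters and in those of Gip, Sct and Nts, and it is also in 1 of the 4 listed starts of Ghrl. GGGCGG, the GC box, is in 32.7% of all promoters and in those of Sct and Tac1.

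**Figure D5:**
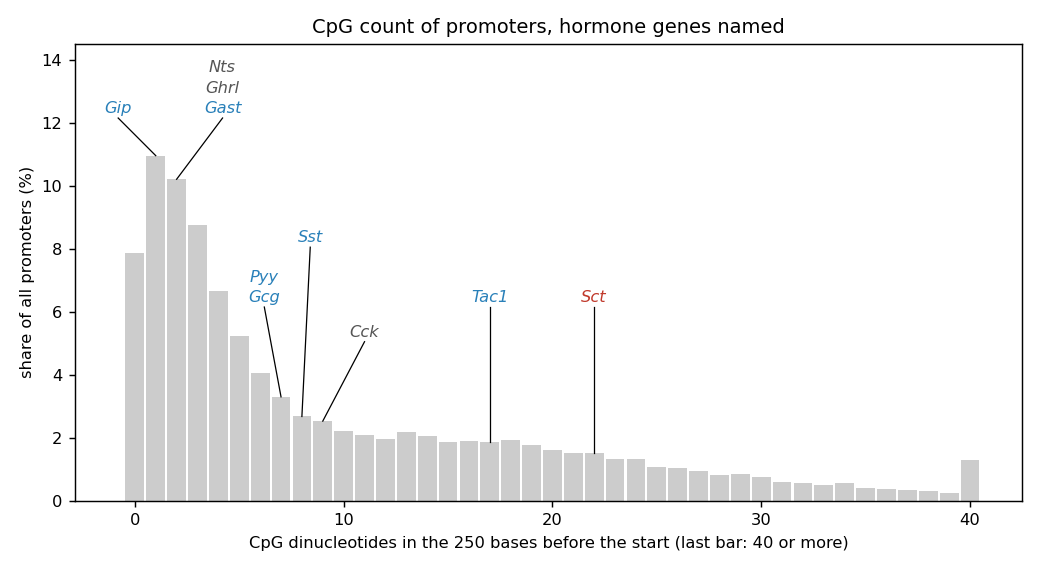
Number of CpG dinucleotides in the 250 bases before the start, as the share (%) of all 32851 mouse promoters, with the hormone genes named above their own count (red, higher in RingKO than in WT; blue, lower; grey, not called). Sct at 22 and Tac1 at 17 lie in the right part of the distribution, and Gip lies at 1.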

How the data were processed

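Per the labels' protocols, RNA of sorted cells was extracted with RNeasy Plus Micro and made into TruSeq RNA v2 libraries. TopHat, DESeq and mm9 are named by the submitters' processing notes. The counter of reads, the annotation and strand handling: not given in the sources used here. The authors deposited normalized signal per RefSeq entry, as group means for RingKO and WT and as single-library values for Bcat_RingKO and Bcat. This signal, as its values show, is a read count plus 1 over a size factor. The authors also deposited a fold (ratio) with its log2 value, and p-values with adjusted p-values for RingKO against WT.

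Reads of each library were recovered from the steps of the deposited signal. In RingKO all 18376 means had 1 solution, and in WT 18363 had 1 and 13 had several. For Bcat_RingKO and Bcat, 100% of values gave whole reads (tolerance 0.001). The letters A and B of libraries are arbitrary. Calls are the authors' adjusted p under 0.05. Fold changes with SE come from edgeR 4.0.16 on the recovered reads (R 4.3.3, TMM, filterByExpr, Benjamini-Hochberg over all tested entries), tested on simulated data. DESeq2 1.42.0 and limma 3.58.1 (log2 with a pseudocount of 1) were alternatives. Relative to the authors' scaling, edgeR shifted log2 values by 0.18 in RingKO against WT and by -0.22 in the Bcat pair. Groups were taken from sample titles. Tables were scaled separately, and levels are compared within a table. RPKM uses the length of the longest GENCODE transcript matched to the RefSeq entry. The members and lists were chosen with earlier results of these data known. The named companion genes are up to 4 called genes of each list with the smallest adjusted p.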

Additional observations from a re-analysis of the deposited data

Results flagged for a closer look

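The change of Sct differed between the 2 comparisons with all libraries in, but not under every setting. It was 2.11 ± 0.20 SE on the log2 scale in RingKO against WT, and the Bcat pair's log2 value minus that one was -1.54 ± 0.38 SE (edgeR over all 6 libraries, adjusted p = 0.0399, DESeq2 adjusted p = 0.0113). The difference missed the threshold without WT library A (edgeR adjusted p = 0.0622), without WT library B (0.0577) and with library totals (0.0678). Sct was higher in both RingKO libraries than in both WT libraries, and in the Bcat_RingKO library than in the Bcat library.

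Chgb differed too, with a log2 value in the Bcat pair minus that of RingKO against WT of -1.95 ± 0.30 SE (edgeR adjusted p = 0.011). It was lower in both RingKO libraries than in both WT libraries, and in the Bcat_RingKO library than in the Bcat library. Both differences rest on 1 Bcat and 1 Bcat_RingKO library, whose spread was assumed to be that of the other groups and not measured.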

How the results depend on the processing

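Across edgeR, DESeq2, limma, other scalings, no count filter and leaving out a library, 5 to 7 hormone genes were called lower and 1 higher in RingKO. Leaving out a library gave 5 to 7 lower and 1 higher. Of the log2 fold changes of hormone genes under these settings, 95 kept their direction and side of the threshold, 5 passed it newly and 2 lost it. In the Bcat pair 8 genes were at least 2-fold lower with other scalings, among them Ghrl at 1 read in each library, 7 without Ghrl, and 6 by the counting interval or by edgeR over all libraries. The difference between the comparisons changed sign for Gcg, at 2.83 without RingKO library B (edgeR adjusted p = 0.0466), against -1.07 without RingKO library A and -0.12 with all libraries, since library B held 15 of its 16 RingKO reads. No paired analysis was possible because the recovered libraries carry no replicate number. Genes under the floor of 3 reads, such as Cck, and Nts and Pyy in RingKO are limited by depth.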
